A study of Homo sapiens with 12 samples.

Results

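The genes examined here encode the proteins of 4 splicing factor families, the heterogeneous nuclear ribonucleoproteins (HNRNP), the serine and arginine rich splicing factors (SRSF), the proteins of the small nuclear ribonucleoprotein particles (SNRP, which also holds the genes named SNRNP), and the subunits of splicing factor 3 (SF3). They were taken by gene symbol, with earlier results of these data known, and 60 of the 57353 gene names in the count table matched. Of these, 20 belong to HNRNP, 12 to SRSF, 19 to SNRP and 9 to SF3. RNA-seq was run on MOLM-13, a human acute myeloid leukemia (AML) cell line that carries an internal tandem duplication of the receptor kinase FLT3 and is labelled wild type for genotype. The cells received vehicle (DMSO) or 3 nM quizartinib (AC220), an inhibitor of FLT3, for 15 hr, either in regular medium (RPMI) or in hBMSC-CM. The latter is medium conditioned by HS-5, a human bone marrow stromal cell line, and then mixed with fresh RPMI. Each of the 4 groups had 3 libraries from this single cell line, so the spread between libraries is that of cultures of MOLM-13 and not of patients. Arms with an ATM inhibitor, which the series also names, were not analysed here. The study compared the groups to learn how stromal medium alters the transcriptional response of FLT3-ITD cells to FLT3 inhibition.

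Splicing removes introns from pre-mRNA in the spliceosome, a machine built anew on each intron from small nuclear RNAs and their proteins. The U1 particle recognizes the 5' splice site and the U2 particle the branch point, and U4, U5 and U6 join as a tri-snRNP. Every one of these particles except U6 carries a ring of Sm proteins (SNRPB, SNRPD1, SNRPD2, SNRPD3, SNRPE, SNRPF and SNRPG), and the SF3A and SF3B complexes hold U2 on the branch point. SR proteins bind exonic sequences and promote the use of nearby splice sites, whereas hnRNP proteins package nascent RNA and often act against them. Many SR and hnRNP genes limit their own mRNA through unproductive splicing. Recurrent mutations of SF3B1, SRSF2, U2AF1 and ZRSR2 occur in myeloid malignancies, although no mutation was examined in these data.

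Promoter windows are given for the gene with the largest decrease on quizartinib in RPMI in each family, for HNRNPU, the gene with the largest increase, and for SF3B1, one of the genes that was not called. Each window spans 250 bases before to 50 bases after a RefSeq transcription start in GRCh38.p14 and is written 5' to 3' on the strand of the gene, with capitals marking a match to a motif. The motifs were the E-box CACGTG, the core bound by MYC and related factors, and CCGGAAG, the core bound by ETS factors. Both were searched on both strands, and the letters of one cannot overlap those of the other. The windows lie at chr5:178204283-178204582 on the plus strand (HNRNPAB), chr2:38751445-38751744 on the minus strand (SRSF7), chr2:70293409-70293708 on the minus strand (SNRPG), chr1:37989973-37990272 on the minus strand (SF3A3), chr1:244864494-244864793 on the minus strand (HNRNPU) and chr2:197434979-197435278 on the minus strand (SF3B1). For SRSF7, SNRPG and SF3B1, which have several starts, the first window listed is shown.
HNRNPAB: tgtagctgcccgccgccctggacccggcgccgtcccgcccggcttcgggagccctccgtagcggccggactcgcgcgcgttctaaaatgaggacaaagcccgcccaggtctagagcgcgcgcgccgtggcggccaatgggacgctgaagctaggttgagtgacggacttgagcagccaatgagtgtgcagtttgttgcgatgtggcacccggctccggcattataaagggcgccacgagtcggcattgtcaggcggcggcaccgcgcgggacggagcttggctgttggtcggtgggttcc
SRSF7: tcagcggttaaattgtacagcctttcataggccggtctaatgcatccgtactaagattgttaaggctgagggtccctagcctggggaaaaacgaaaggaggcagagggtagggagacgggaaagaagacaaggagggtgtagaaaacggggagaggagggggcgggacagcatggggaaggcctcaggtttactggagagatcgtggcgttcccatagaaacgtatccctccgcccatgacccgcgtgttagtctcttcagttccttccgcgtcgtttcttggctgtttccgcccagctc
SNRPG: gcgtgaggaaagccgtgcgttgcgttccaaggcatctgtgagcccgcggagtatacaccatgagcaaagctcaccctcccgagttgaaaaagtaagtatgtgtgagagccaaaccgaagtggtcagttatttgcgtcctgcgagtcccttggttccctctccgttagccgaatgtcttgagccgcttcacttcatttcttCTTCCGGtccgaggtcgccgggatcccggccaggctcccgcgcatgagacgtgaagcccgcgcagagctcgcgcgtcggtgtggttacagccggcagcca
SF3A3: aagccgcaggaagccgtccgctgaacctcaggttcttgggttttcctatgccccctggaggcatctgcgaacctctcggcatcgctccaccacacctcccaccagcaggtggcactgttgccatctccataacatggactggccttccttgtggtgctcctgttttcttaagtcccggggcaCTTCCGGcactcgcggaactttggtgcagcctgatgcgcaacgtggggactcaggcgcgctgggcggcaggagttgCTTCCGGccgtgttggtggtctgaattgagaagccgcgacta
HNRNPU: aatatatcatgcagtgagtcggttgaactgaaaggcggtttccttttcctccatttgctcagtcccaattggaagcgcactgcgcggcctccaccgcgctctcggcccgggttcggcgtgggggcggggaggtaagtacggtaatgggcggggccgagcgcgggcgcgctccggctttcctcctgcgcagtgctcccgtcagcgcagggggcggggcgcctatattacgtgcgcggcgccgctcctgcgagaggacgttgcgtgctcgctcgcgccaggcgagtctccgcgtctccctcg
SF3B1: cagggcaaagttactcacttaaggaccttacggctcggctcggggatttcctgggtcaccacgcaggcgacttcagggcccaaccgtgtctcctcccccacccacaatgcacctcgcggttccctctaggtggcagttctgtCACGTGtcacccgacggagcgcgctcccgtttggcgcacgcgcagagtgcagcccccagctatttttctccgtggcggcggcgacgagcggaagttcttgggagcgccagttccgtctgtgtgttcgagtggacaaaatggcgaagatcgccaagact

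The SF3A3 window holds 2 ETS cores, the SNRPG window 1 ETS core and the SF3B1 window 1 E-box, and the windows of HNRNPAB, SRSF7 and HNRNPU hold neither motif. In the GENCODE v44 annotation the SNRPG gene begins at chr2:70293740 on the minus strand. The SNRPG window shown, with its ETS core, therefore lies within that gene model and not upstream of it. RefSeq windows were matched to 55 of the 60 genes. An ETS core was present in at least 1 window of 6 of 8 SF3 genes (75%), 9 of 17 SNRP genes (52.9%), 2 of 11 SRSF genes (18.2%) and 3 of 19 HNRNP genes (15.8%). Among all 27305 genes with windows of the same length the share was 12.2%, and among those that were also tested here it was 23.8%. The E-box was found in 7 HNRNP genes (36.8%), 1 SF3 gene, 1 SNRP gene and no SRSF gene, against 8.77% of all genes and 13.2% of those tested. The ETS core was in 16 of 43 members called lower on quizartinib in RPMI (37.2%) and in 4 of 11 that were tested and not called lower (36.4%), and the E-box was in 5 (11.6%) and 4 (36.4%) of the same members, shares that were not tested. These matches describe letters and not bound sites.

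Total counts ranged from 19966546 to 31546104 per library, so that 3 counts equalled 0.0951 to 0.150 CPM, counts scaled to one common library total, and 59 of the 60 genes passed a filter on low expression. The remaining member, SRSF12, had 1 count in all 12 libraries together. Myeloid markers summed to 1380 to 2620 CPM, with at least 11 of 12 over 1 CPM in every group. The 12 fibroblast and stromal markers summed to 3.65 to 8.84 CPM, and COL3A1, LUM, DCN, POSTN and THY1 were at 0 in all libraries. Only FBN1 and COL1A1 had a group mean over 1 CPM. FBN1 was at 2.38 to 3.0 CPM. COL1A1 was at 0.177 in RPMI vehicle, 4.61 in RPMI quizartinib, 0.225 in hBMSC-CM vehicle and 0.992 in hBMSC-CM quizartinib. Of the splicing factor genes, 11 were over 15% below the mean of the other 2 replicates in replicate 3 of hBMSC-CM vehicle, 7 in replicate 1 of hBMSC-CM quizartinib and 5 in replicate 2 of RPMI vehicle. HNRNPH3, an hnRNP of the F/H group, was the lowest in all 3 of these libraries. Its levels were 119, 74.1 and 118 CPM in RPMI vehicle, 69.1, 71.3 and 63.1 in RPMI quizartinib, 108, 108 and 64.2 in hBMSC-CM vehicle and 49.1, 81.1 and 84.2 in hBMSC-CM quizartinib. The 3 libraries therefore stand apart for a small group of genes that includes HNRNPA2B1, SNRNP200, SNRPA1 and SF3A1, and counts are given with and without them. Some exons also share bases with a neighbour, and reads of those bases are uncertain. For neighbours on the opposite strand this is because the strand setting of the counting is not given in the sources used here. On the same strand no setting would separate the reads. In GENCODE v44, opposite-strand neighbours share 53.65% of the exon bases of HNRNPA3 (NFE2L2), 43.96% of SNRNP35 (RILPL1), 43.59% of SRSF9 (GATC) and 27.65% of SRSF2 (MFSD11). Same-strand neighbours share 44.27% of HNRNPUL2 (HNRNPUL2-BSCL2), 32.69% of SRSF1 (the unnamed gene model ENSG00000266086) and 23.86% of SNRPN (SNURF). For HNRNPH2, HNRNPU, SNRPD3, SRSF6, SNRNP27, HNRNPA2B1 and HNRNPAB the largest share with one neighbour was 15.77% down to 9.25%.

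Quizartinib in RPMI was accompanied by lower mRNA of most splicing factor genes. Of the 59 genes tested, 46 were called lower (78%) and 5 higher, whereas of all 12998 genes tested 39.2% were called lower and 40.1% higher. The call rests on edgeR's quasi-likelihood test with a Benjamini-Hochberg adjusted p under 0.05. The median log2 fold change was -0.53 over the splicing factor genes and 0.02 over all genes tested. A log2 fold change of -1 or lower was called for 13 of the 59, and for 1536 of all 12998 genes tested. Without the 3 libraries that stand apart, 47 were lower and 6 higher. Scaling by library size alone or by upper quartiles moved the median of all genes to 0.11 and 0.13 and left 43 splicing factor genes lower and 8 or 9 higher. CPM are relative to all mRNA counted, and in bulk samples a lower level can come from fewer cells that express a gene or from less of its mRNA per cell, which cannot be told apart.

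The summed levels of the 4 families fell by unequal amounts. These sums are in TMM-scaled CPM, in which a long mRNA weighs more than a short one. Summed CPM of the SRSF genes went from 2829, 2798 and 2820 in RPMI vehicle to 1761, 1689 and 1681 in RPMI quizartinib, which is 60.8% of the vehicle mean. The SNRP sum was 2467 ± 56.0 (SD, n = 3) in vehicle and 1703 ± 22.2 on quizartinib (69.1%), and the SF3 sum was 2438 ± 39.5 and 1919 ± 32.6 (78.7%). The HNRNP sum was 12199 ± 298.0 in vehicle and 10280 ± 150.0 on quizartinib (84.3%). Without HNRNPU, a long and abundant member that rose, it was 10170 ± 226.0 and 7629 ± 86.7 (75%). No member was left out of the other families in this way. The SF3 sum kept SF3B1, which was 27.9% of it in RPMI vehicle and was not called, so the 75% is not ranked against SF3. The median log2 fold change per gene was -0.61 for SRSF, -0.53 for SNRP, -0.47 for HNRNP and -0.36 for SF3. In none of the 4 families did the libraries of these groups overlap. In hBMSC-CM quizartinib the sums were 82.2% (HNRNP), 81.8% (SRSF), 84.0% (SNRP) and 86.0% (SF3) of RPMI vehicle, a narrower range than in RPMI quizartinib. These shares also hold the difference between the media. In hBMSC-CM vehicle the sums were 92.7% (HNRNP), 99.4% (SRSF), 105% (SNRP) and 99.7% (SF3) of RPMI vehicle. Within hBMSC-CM the mean sums went from 11312 to 10027 (HNRNP), 2800 to 2304 (SRSF), 2598 to 2073 (SNRP) and 2430 to 2097 CPM (SF3). For SRSF, SNRP and SF3 every library of hBMSC-CM quizartinib lay above every library of RPMI quizartinib and below every vehicle library, and for HNRNP the quizartinib groups overlapped (9680 to 10327 against 10115 to 10407). Without HNRNPU they did not (8125 to 8548 against 7556 to 7725).

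**Figure D1:**
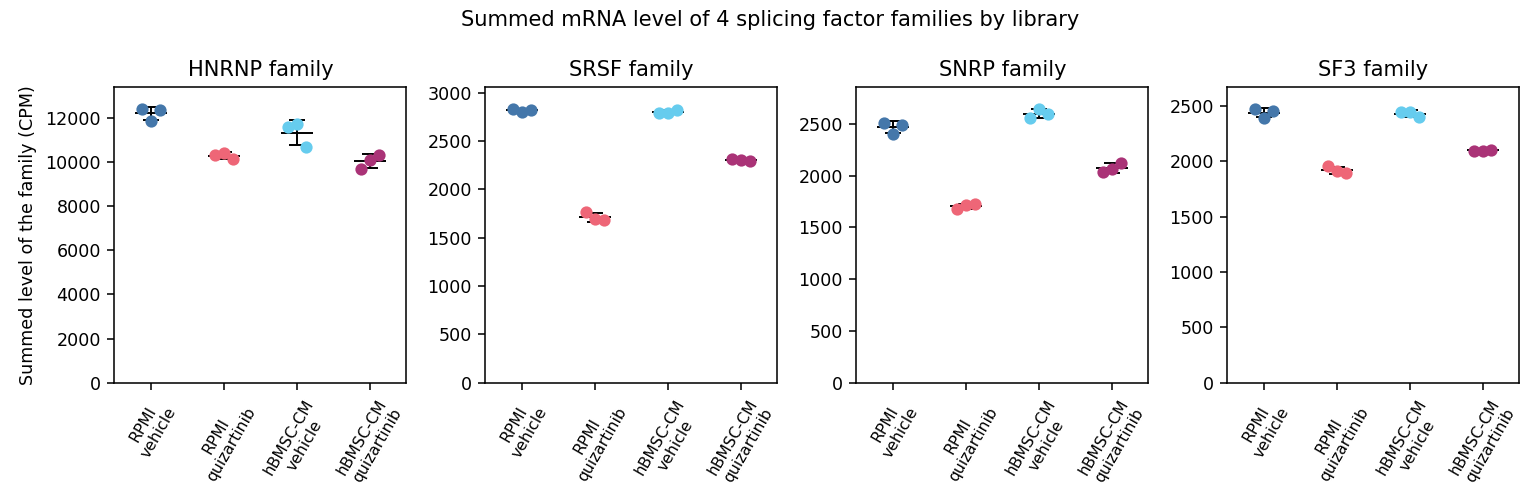
Summed level of each family (TMM-scaled CPM, from 0) in the 4 groups. Coloured points are libraries, and the black line and bars give the mean and SD of 3 libraries. SRSF fell the most in RPMI, to 60.8% of vehicle, and HNRNP the least, to 84.3%. Without HNRNPU the HNRNP sum fell to 75%, and no member was left out of the other families.

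Among SR proteins, 10 of 11 tested genes were lower on quizartinib in RPMI and none was higher, with a median log2 fold change of -0.61. SRSF7, an SR protein with a zinc knuckle that also takes part in mRNA export, measured 290, 289 and 283 CPM in RPMI vehicle and 85.4, 80.5 and 76.6 in RPMI quizartinib, a log2 fold change of -1.83 ± 0.0444 (SE, edgeR adjusted p = 5.7e-19). In hBMSC-CM the levels were 295, 303 and 308 with vehicle and 201, 201 and 193 with quizartinib. SRSF7 was therefore lowest in RPMI quizartinib, intermediate in hBMSC-CM quizartinib and highest in both vehicle groups, with no overlap between these 3 levels. SRSF2, which binds exonic enhancers and is a target of mutation in myeloid disease, was 406, 414 and 422 CPM and 148, 155 and 153 CPM in RPMI, and 427, 419 and 471 and 284, 276 and 270 in hBMSC-CM. The same order held for SRSF1, the founding SR protein, at 145, 152 and 146 CPM in RPMI vehicle, 74.4, 71.2 and 67.4 in RPMI quizartinib, 158, 158 and 163 in hBMSC-CM vehicle and 118, 113 and 110 in hBMSC-CM quizartinib. Their log2 fold changes in RPMI were -1.44 ± 0.0462 and -1.06 ± 0.0446. SRSF10, SRSF6, SRSF9, SRSF3, SRSF4, SRSF8 and SRSF11 also fell, by 0.96 down to 0.15 on the log2 scale. The SRSF11 call was lost with scaling by library size alone or by upper quartiles and under a mean CPM of at least 10.

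SRSF5 was the exception of its family. It measured 250, 242 and 242 CPM in RPMI vehicle and 274, 249 and 245 in RPMI quizartinib, groups that overlapped (log2 fold change 0.07 ± 0.0439, edgeR adjusted p = 0.175). In hBMSC-CM it went from 232, 227 and 226 to 283, 298 and 295, a rise of 0.35 ± 0.0441 on the log2 scale (adjusted p = 4.99e-07). With scaling by library size alone or by upper quartiles SRSF5 was called higher in RPMI too (0.16 and 0.17). As a share of the summed CPM of SRSF, which is not corrected for length, SRSF5 made up 8.69% in RPMI vehicle and 15.0% in RPMI quizartinib, and SRSF7 went from 10.2% to 4.72%.

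Of the hnRNP genes, 14 of 20 were lower on quizartinib in RPMI, 4 were higher and 2 were not called. HNRNPAB, which binds RNA and single-stranded DNA, had the lowest fold change of all 59 genes. It measured 314, 305 and 312 CPM in RPMI vehicle and 67.9, 72.1 and 67.7 in RPMI quizartinib, and 327, 338 and 304 and 188, 197 and 207 in hBMSC-CM with vehicle and quizartinib. The groups did not overlap in either medium, and in RPMI the log2 fold change was -2.16 ± 0.0498 (edgeR adjusted p = 2.63e-19). HNRNPF, which binds runs of guanines, measured 796, 789 and 755 CPM and 310, 333 and 339 CPM in RPMI and 844, 888 and 874 and 651, 629 and 640 in hBMSC-CM. HNRNPR, a relative of SYNCRIP, went from 483, 506 and 485 to 218, 216 and 215 in RPMI and from 502, 511 and 479 to 347, 334 and 358 in hBMSC-CM. The log2 fold changes in RPMI were -1.25 ± 0.0447 for HNRNPF and -1.18 ± 0.0423 for HNRNPR. The relatives HNRNPDL and HNRNPD, which bind AU-rich RNA, changed by -1.08 and -0.90, so that all 3 genes of the AB and D group were lower. The abundant HNRNPH1, HNRNPK and HNRNPC changed by -0.48, -0.46 and -0.23, all called lower.

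The hnRNP family also held 4 of the 5 splicing factor genes that were higher on quizartinib in RPMI. HNRNPU, a nuclear scaffold protein that binds chromatin and RNA, was the most abundant member in CPM, at 2050, 1940 and 2090 in RPMI vehicle and 2710, 2680 and 2560 in RPMI quizartinib. The libraries did not overlap, and the log2 fold change was 0.39 ± 0.0545 (edgeR adjusted p = 1.49e-06). Its share of the summed CPM of HNRNP, not corrected for length, went from 16.6% to 25.8%. In hBMSC-CM, HNRNPU measured 1680, 1730 and 1580 with vehicle and 1550, 1740 and 1780 with quizartinib, groups that overlapped (log2 fold change 0.02 ± 0.0545). Its paralog HNRNPUL2 was 24.3, 24.8 and 24.6 and 30.7, 31.7 and 30.1 CPM in RPMI (0.33 ± 0.0931), whereas the third gene of this group, HNRNPUL1, was 501, 466 and 501 and 463, 498 and 503 and was not called. HNRNPA1, which shuttles between nucleus and cytoplasm and counters SR proteins at many exons, measured 1440, 1300 and 1430 CPM in RPMI vehicle and 1650, 1710 and 1640 in RPMI quizartinib (log2 fold change 0.26 ± 0.0663). In the same medium its close relatives HNRNPA0, HNRNPA3 and HNRNPA2B1 were called lower, at -0.80, -0.64 and -0.57. Reads of HNRNPA1 can also match its 75 annotated pseudogenes, whose counts came to 5.60 to 7.85% of those of HNRNPA1 per library.

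**Figure D2:**
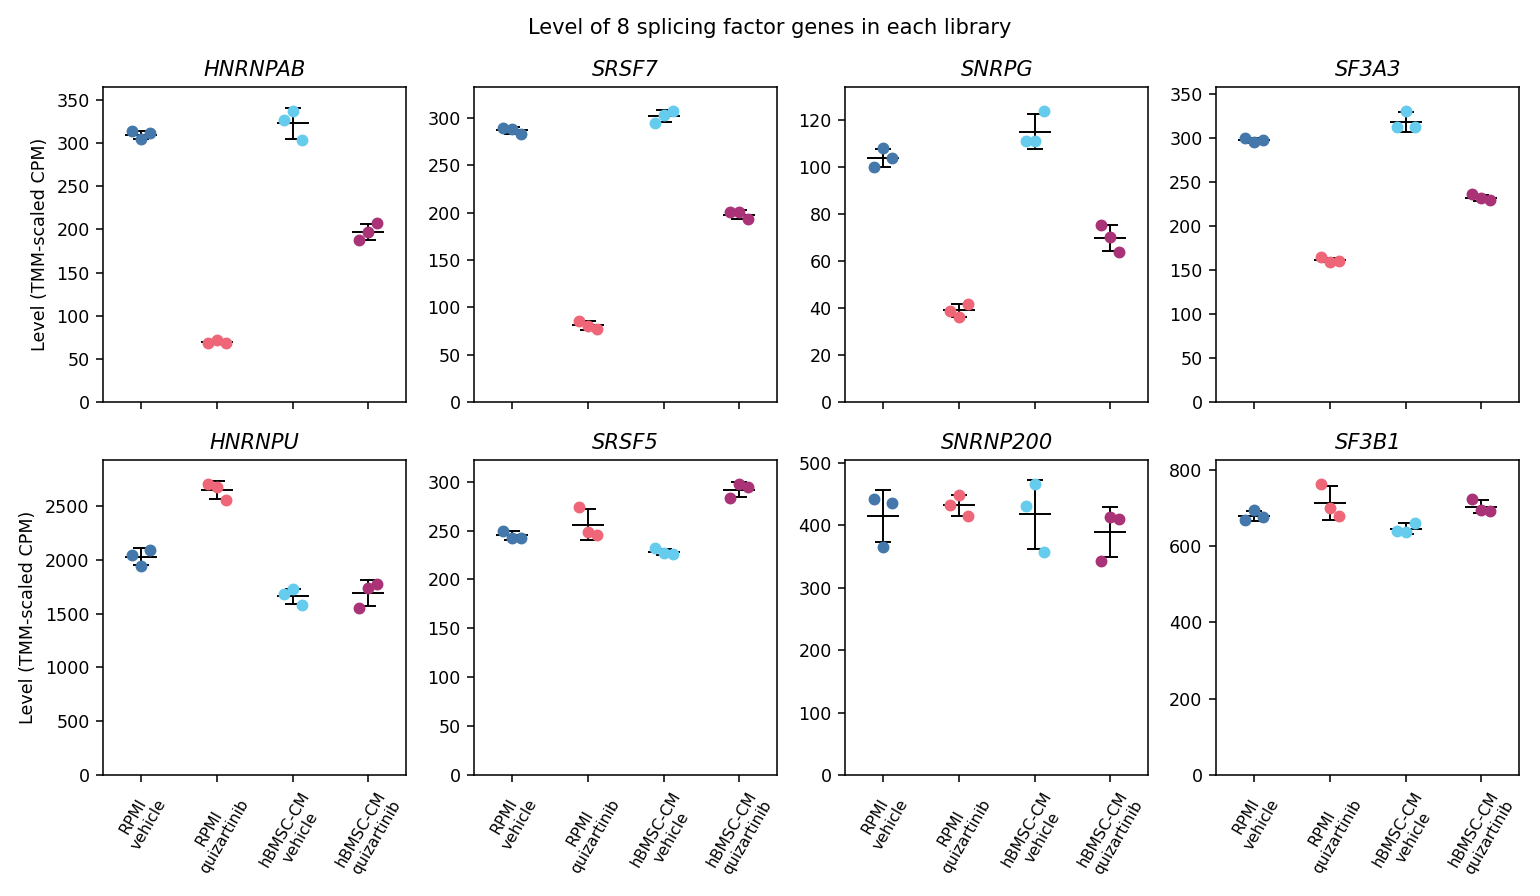
Level of 8 genes (TMM-scaled CPM, from 0) in the 12 libraries. Points are libraries, and the black line and bars give the mean and SD of 3. HNRNPAB, SRSF7, SNRPG and SF3A3 are lowest in RPMI quizartinib and intermediate in hBMSC-CM quizartinib. HNRNPU is highest in RPMI quizartinib, SRSF5 is highest in hBMSC-CM quizartinib, and the groups overlap for SNRNP200.

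Among snRNP proteins, 15 of 19 genes were lower on quizartinib in RPMI, 1 was higher and 3 were not called. The Sm ring fell as a group, since all 7 ring genes other than the tissue-restricted SNRPN were called lower, with a range from -1.42 for SNRPG to -0.47 for SNRPD2. SNRPG measured 100, 108 and 104 CPM in RPMI vehicle, 38.8, 36.1 and 41.8 in RPMI quizartinib, 111, 111 and 124 in hBMSC-CM vehicle and 75.3, 70 and 63.9 in hBMSC-CM quizartinib. SNRPD1 measured 158, 168 and 167 CPM and 65.4, 63.2 and 63.7 CPM in RPMI and 176, 182 and 180 and 123, 122 and 128 in hBMSC-CM. Both genes showed 3 separate levels, with the vehicle groups highest. Their log2 fold changes in RPMI were -1.42 ± 0.0634 and -1.36 ± 0.0416. SNRPB, SNRPF, SNRPE and SNRPD3 changed by -1.27, -0.85, -0.66 and -0.51. The genes of one ring thus differed in their fold changes, although each ring takes up all 7 proteins. SNRPG and SNRPE have pseudogenes whose counts came to 20.7 to 26.2% and 8.71 to 18.5% of their own, so the values of these genes are less certain.

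The particle-specific proteins varied more. All 3 U1 proteins were lower on quizartinib in RPMI, with log2 fold changes of -0.77 for SNRPC, -0.53 for SNRNP70 and -0.27 for SNRPA. Both U2 proteins were lower, at -1.22 for SNRPA1 and -0.33 for SNRPB2, which bind a stem-loop of U2 as a pair. Of the U5 proteins, SNRNP40 went from 168, 162 and 157 to 71.9, 73.1 and 77.5 CPM (-1.13 ± 0.0529). SNRNP200, the helicase that unwinds U4 from U6, was 442, 366 and 436 and 432, 448 and 415, with overlapping libraries and a log2 fold change of 0.06 ± 0.0833. The 3 proteins of the minor U11/U12 particle, which serves a small class of introns, did not move together. SNRNP25 went from 59.9, 56.7 and 58.2 to 22.2, 22.0 and 23.9 CPM (-1.36 ± 0.0662), SNRNP35 from 26.8, 27 and 27.1 to 31.9, 33.0 and 32.0 (0.26 ± 0.066, called higher), and SNRNP48 was not called (0.10 ± 0.0533). With scaling by library size alone or by upper quartiles SNRNP48 was called higher. It was also called higher under a mean CPM of at least 10 and without the 3 libraries that stand apart. SNRPN, a paralog of SNRPB used mainly in brain, was low, at 7.80, 8.57 and 7.52 CPM in RPMI vehicle and 8.42, 8.69 and 7.28 in RPMI quizartinib, and was not called. Its exons share bases with same-strand neighbours, 23.86% of them with SNURF, so its level is uncertain.

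Of the SF3 genes, 7 of 9 were lower on quizartinib in RPMI and none was higher. No member had a log2 fold change of -1 or lower, which was called for 1536 of all 12998 genes tested. SF3A3, a subunit of SF3A that contacts U2 snRNA, measured 300, 295 and 297 CPM in RPMI vehicle and 164, 159 and 160 in RPMI quizartinib, and 312, 331 and 312 and 236, 232 and 229 in hBMSC-CM with vehicle and quizartinib. SF3B3, a scaffold subunit of SF3B, measured 511, 485 and 502 and 285, 284 and 282 in RPMI and 491, 485 and 480 and 389, 385 and 375 in hBMSC-CM. Their log2 fold changes in RPMI were -0.88 ± 0.0392 and -0.82 ± 0.0388, and both had 3 separate levels with hBMSC-CM quizartinib in between. SF3B4 and SF3B5 changed by -0.61 and -0.59, and SF3B2 and SF3B6, which contacts the branch point adenosine, by -0.36 and -0.36. The other SF3A subunits were close to the threshold, with -0.20 ± 0.0838 for SF3A2 (edgeR adjusted p = 0.0377) and -0.16 ± 0.0832 for SF3A1 (adjusted p = 0.0816). The SF3A2 call was lost when replicate 1 or 3 of RPMI vehicle or replicate 1 or 2 of RPMI quizartinib was left out. SF3B1, the largest subunit and the one most often mutated in myelodysplasia, was 668, 694 and 676 CPM in RPMI vehicle and 764, 700 and 678 in RPMI quizartinib, and the groups overlapped (0.07 ± 0.0461, edgeR adjusted p = 0.154). With scaling by library size alone or by upper quartiles SF3B1 was called higher in RPMI (0.16 and 0.17). The subunits of SF3B had unequal fold changes.

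**Figure D3:**
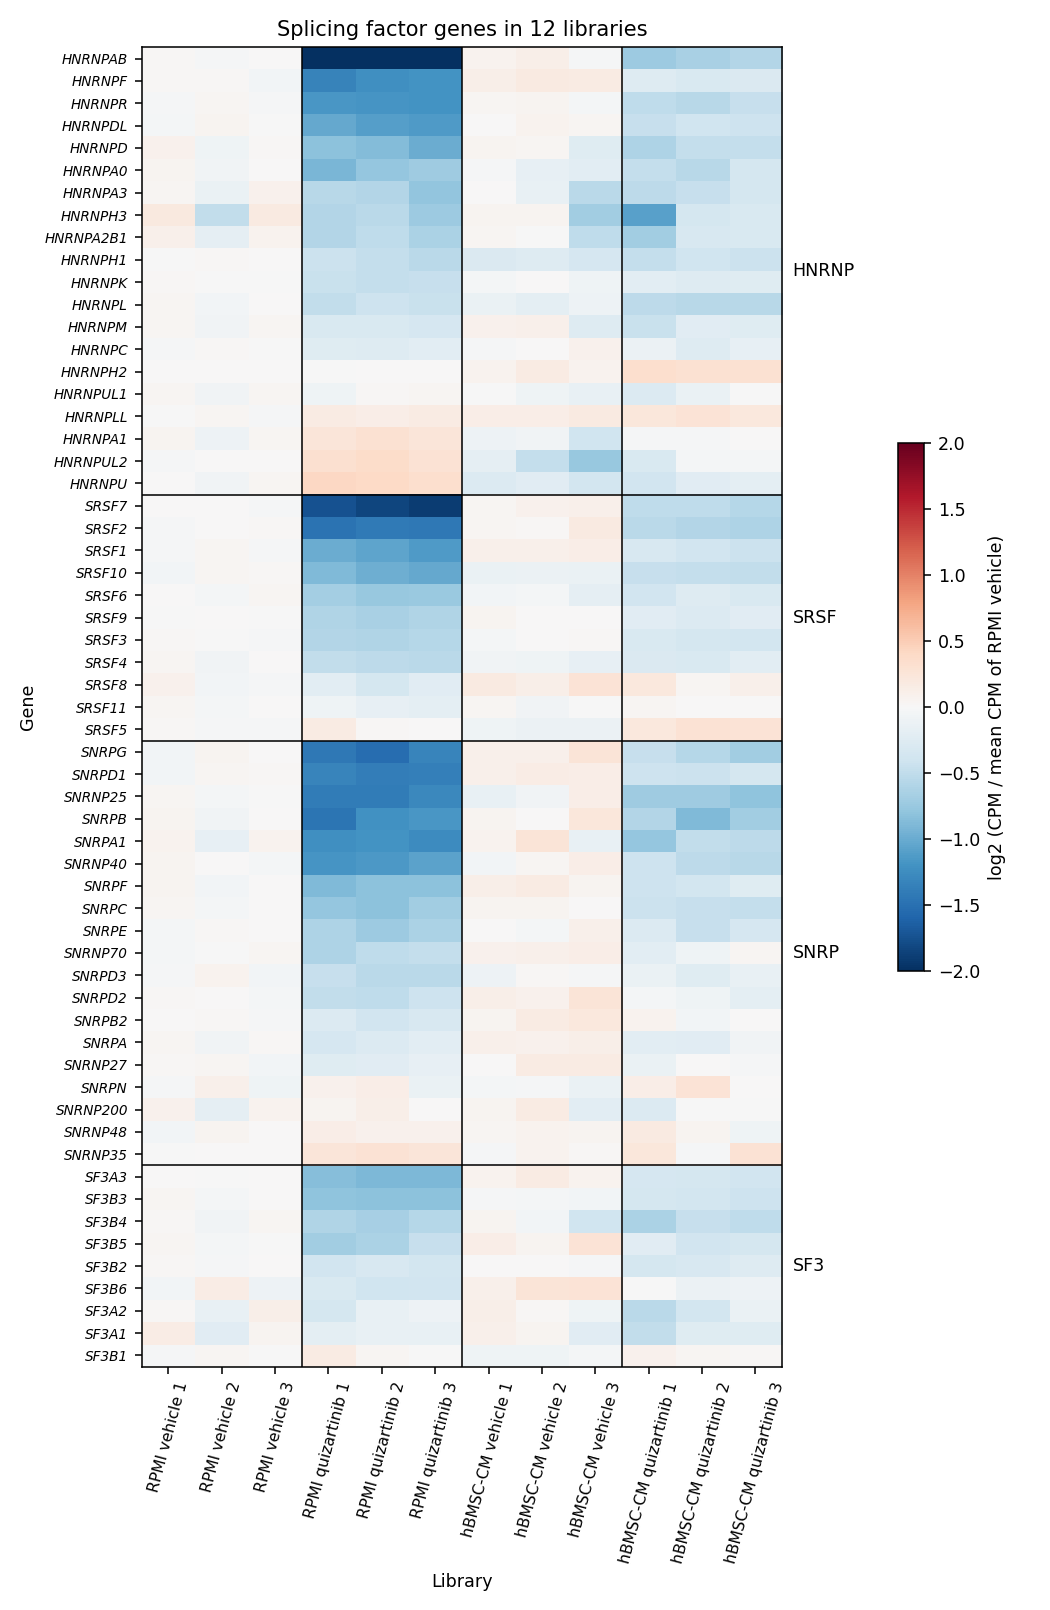
Level of the 59 genes tested in each library as log2 of CPM over the mean CPM of RPMI vehicle, by family and ordered by the fold change in RPMI. Blue is lower and red higher, and colours saturate at 2 below or above. The RPMI quizartinib columns are bluest, and HNRNPU, HNRNPUL2, HNRNPA1 and HNRNPLL at the foot of HNRNP are red there.

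In hBMSC-CM, quizartinib lowered nearly as many splicing factor genes as in RPMI, but by less. Of the 59, 44 were called lower and 5 higher (74.6% and 8.47%), against 33.7% and 33.4% of all genes tested. The median log2 fold change was -0.29. None of the 59 was at -1 or lower, but such a change was called for only 264 of all 12998 genes in this medium. Without the 3 libraries that stand apart, 45 were lower and 4 higher. With scaling by library size alone or by upper quartiles 36 were lower and 10 or 9 higher, while 62.8% and 60% of all calls were then higher, against 49.8% with TMM. By family, 13 of 20 HNRNP, 8 of 11 SRSF, 15 of 19 SNRP and 8 of 9 SF3 genes were lower. The lowest value was that of SNRPB, which encodes the Sm proteins B and B', at 191, 185 and 216 CPM with vehicle and 123, 99.8 and 114 with quizartinib (-0.81 ± 0.0752). The 5 genes called higher were SRSF5, HNRNPUL2, HNRNPH2, HNRNPA1 and SF3B1, with log2 fold changes of 0.35, 0.31, 0.22, 0.17 and 0.12. The calls of HNRNPA1, HNRNPUL2 and SF3B1 depended on single libraries. Leaving out replicate 3 of hBMSC-CM vehicle removed HNRNPA1 and HNRNPUL2 and left 3. The HNRNPA1 call was also lost without replicate 3 of hBMSC-CM quizartinib and without the 3 libraries that stand apart. The SF3B1 call was lost without replicate 1 of hBMSC-CM quizartinib, without replicate 1 or 2 of hBMSC-CM vehicle and with no filter on low counts. All 3 calls were lost at an adjusted p under 0.01.

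With vehicle alone, the media differed little for these genes. In hBMSC-CM 8 of 59 were higher than in RPMI and 6 lower, against 16.6% and 15.5% of all genes tested, and the median log2 difference was 0.02. HNRNPU was -0.29 ± 0.0545, HNRNPUL2 -0.43 ± 0.0991 and HNRNPH1 -0.30 ± 0.0428 on the log2 scale, all lower in hBMSC-CM. The 8 that were higher, among them HNRNPF, SNRPD1 and SF3B6, differed by at most 0.21, and their number depended on single libraries. It was 2 without replicate 3 of RPMI vehicle, 5 without replicate 1 of RPMI vehicle or replicate 3 of hBMSC-CM vehicle, and 4 without the 3 libraries that stand apart.

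Under quizartinib, hBMSC-CM held higher levels of most splicing factor genes than RPMI. Of the 59, 37 were called higher (62.7%) and 5 lower, against 35.5% and 34.3% of all genes tested, with a median log2 difference of 0.29 and 0.00 over all genes. All 11 SRSF genes tested and 14 of 19 SNRP genes were higher, as were 8 of 20 HNRNP and 4 of 9 SF3 genes. The largest differences were those of HNRNPAB (1.51 ± 0.0496), SRSF7 (1.29 ± 0.0443), HNRNPF (0.97 ± 0.0446) and SNRPD1 (0.95 ± 0.0418). The 5 lower genes were all hnRNPs, HNRNPU, HNRNPUL2, HNRNPA1, HNRNPUL1 and HNRNPL, at -0.65, -0.45, -0.27, -0.14 and -0.09. The calls of HNRNPUL1 (edgeR adjusted p = 0.0426) and HNRNPL (adjusted p = 0.0492) were close to the threshold and both were lost without replicate 1 or 2 of hBMSC-CM quizartinib or replicate 2 or 3 of RPMI quizartinib, each of which left 3. Without the 3 libraries that stand apart, 42 were higher and 5 lower. In 45 of the 59 genes the mean was lowest in RPMI quizartinib, for which the share over all genes was not counted. In 28 of the 59, every library of hBMSC-CM quizartinib lay above every library of RPMI quizartinib and below every vehicle library. This order was found in 18.1% of all genes tested. The 28 were 7 HNRNP, 8 SRSF, 10 SNRP and 3 SF3 genes.

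The interaction, the quizartinib change in hBMSC-CM minus that in RPMI on the log2 scale, tests this difference in response directly. It was called above 0 for 35 of 59 genes (59.3%) and below 0 for 1, against 26.1% and 19.2% of all genes tested, and its median was 0.27. The counts were 37 and 2 without the 3 libraries that stand apart, and 2 and 3 genes were below 0 without replicate 3 of hBMSC-CM quizartinib or of hBMSC-CM vehicle. It was above 0 for 10 of 20 HNRNP, 10 of 11 SRSF, 13 of 19 SNRP and 2 of 9 SF3 genes, with family medians of 0.25, 0.35, 0.29 and 0.07. The largest values were 1.45 ± 0.0675 for HNRNPAB, 1.22 ± 0.0607 for SRSF7, 0.83 ± 0.0574 for SNRPD1 and 0.81 ± 0.0623 for HNRNPF. HNRNPU alone was called below 0, at -0.36 ± 0.077 (edgeR adjusted p = 0.000654). SF3A3 and SF3B3 were the 2 called SF3 genes, at 0.43 and 0.48, whereas SF3B2 and SF3B5 were not called and had 0.06 ± 0.0572 and 0.11 ± 0.0868.

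Set side by side, the quizartinib changes in the media, which share no library, were ordered alike (Pearson r = 0.88 over the 59 genes and 0.86 over all genes tested, given as a description). Of the 46 genes lower in RPMI, 43 were also lower in hBMSC-CM (93.5%) and 45 changed less there (97.8%). Of all 5096 genes lower in RPMI the shares were 76.8% and 89.8%, and a choice of genes by their call in RPMI itself favours a smaller change in the other medium. Dividing the log2 change in stromal medium by that in regular medium gave a median ratio of 0.49 over these genes, the same value as over those 5096 genes. By family the median ratio was 0.35 for SRSF, 0.44 for HNRNP, 0.54 for SNRP and 0.80 for SF3. SF3A2 was the one gene of the 46 with the larger change in hBMSC-CM (-0.20 and -0.37), and its interaction was not called (-0.17 ± 0.119).

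**Figure D4:**
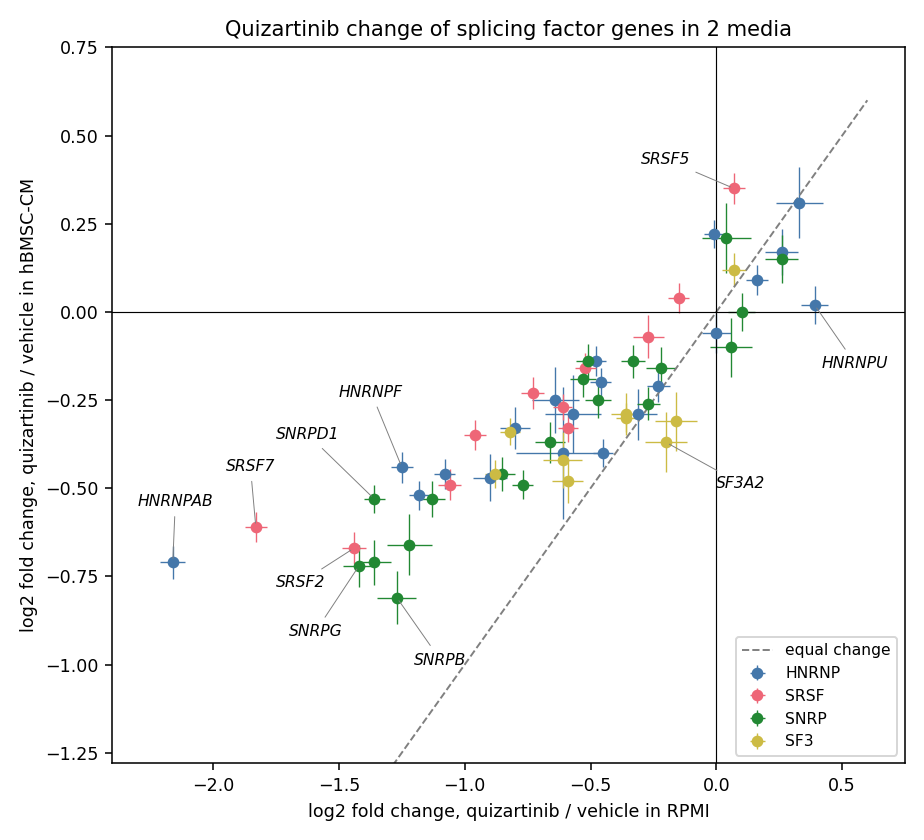
Log2 fold change on quizartinib in RPMI (horizontal) and hBMSC-CM (vertical) for the 59 genes tested, coloured by family, with bars of 1 SE and a dashed line of equal change. Of the 46 genes called lower in RPMI, 45 (97.8%) changed less in hBMSC-CM and lie above the line, against 89.8% of all genes called lower in RPMI, and HNRNPU lies below it to the right.

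Genes that assemble or act on these proteins were examined in 10 further lists of 101 genes, all of which were tested. The lists were written with earlier results of these data known. Their shares and the order of their medians are therefore a description, and no list was tested as a set. On quizartinib in RPMI, 66 were called lower and 18 higher (65.3% and 17.8%, against 39.2% and 40.1% of all genes tested), with a median log2 fold change of -0.35. In hBMSC-CM 56 were lower and 12 higher (55.4% and 11.9%, against 33.7% and 33.4%), with a median of -0.18. The counts of single lists below are for RPMI and stand beside the same 39.2% lower and 40.1% higher of all genes. Among the 10 lists, the lowest medians in RPMI were those of the complexes that load and modify Sm proteins. In the SMN complex, which places the Sm ring on snRNA, 8 of 9 genes were lower (median -0.95). GEMIN4 was 90.2 ± 3.46 CPM in RPMI vehicle and 13.7 ± 0.47 in RPMI quizartinib, and 100 ± 5.75 and 56.5 ± 2.42 in hBMSC-CM (log2 fold change -2.72 in RPMI and -0.83 in hBMSC-CM), and GEMIN7 was higher in RPMI (0.64). SMN1 shares reads with its near-identical copy SMN2 and is uncertain. In the complex that methylates Sm proteins, 4 of 5 genes were lower (median -1.32). WDR77, the partner of the methyltransferase PRMT5, was 38.6 ± 1.2 and 8.77 ± 0.346 CPM in RPMI (-2.14). CLNS1A, the chaperone that brings Sm proteins to PRMT5, was called higher in RPMI, close to the threshold (0.10 ± 0.0422, edgeR adjusted p = 0.0396). In hBMSC-CM CLNS1A was not called (edgeR adjusted p = 0.94).

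The other core lists had medians between -0.53 and -0.04. Of the LSM proteins, most of which form the ring of U6, 6 of 8 were lower, with LSM4 lowest (-1.05). Of the U5 and tri-snRNP proteins 11 of 14 were lower, with SNU13, which binds U4, at -1.19. Of the genes for 3' splice site recognition 7 of 9 were lower, from PUF60 (-1.06) to ZRSR2, which serves minor introns and was higher (0.56). Of the spliceosomal helicases 5 of 7 were lower, and DHX15, which takes apart spent spliceosomes, was 425 ± 5.32 CPM in RPMI vehicle and 173 ± 8.04 in RPMI quizartinib (-1.30), whereas DHX8 was higher (0.24). Of the SR-like proteins 4 of 8 were lower and none higher, with TRA2B at -1.03. The PRP19 complex and related genes, which act once the spliceosome is activated, had 5 of 14 lower and 5 higher (35.7% each), which is close to the shares over all genes, and ranged from PRPF19 (-1.18) to SYF2 (1.00). Of 22 other hnRNP-like RNA-binding proteins 15 were lower and 5 higher, with SYNCRIP, the relative of HNRNPR, lowest at -1.54 and RBM5 highest at 0.57.

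The kinases that phosphorylate SR proteins were the one list with a median above 0 in RPMI (0.46), and 4 of 6 were higher (66.7%). CLK4, a nuclear kinase of this group, was 29.9 ± 2.28 CPM in RPMI vehicle, 65.2 ± 3.72 in RPMI quizartinib, 25.7 ± 0.619 in hBMSC-CM vehicle and 42.4 ± 1.6 in hBMSC-CM quizartinib (log2 fold change 1.13 in RPMI and 0.72 in hBMSC-CM). SRPK1, the kinase that sends SR proteins to the nucleus, was 266 ± 2.67 CPM in RPMI vehicle and 106 ± 1.74 in RPMI quizartinib, and 340 ± 11.8 and 212 ± 0.531 in hBMSC-CM (-1.32 and -0.68). The interaction was -0.41 for CLK4 and 0.64 for SRPK1, both called. Over the 101 genes, hBMSC-CM against RPMI gave 51 higher and 21 lower genes under quizartinib (50.5% and 20.8%, against 35.5% and 34.3% of all genes tested). With vehicle 13 were higher and 9 lower (12.9% and 8.91%, against 16.6% and 15.5%). The interaction was called above 0 for 44 and below 0 for 12 (43.6% and 11.9%, against 26.1% and 19.2%).

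**Figure D5:**
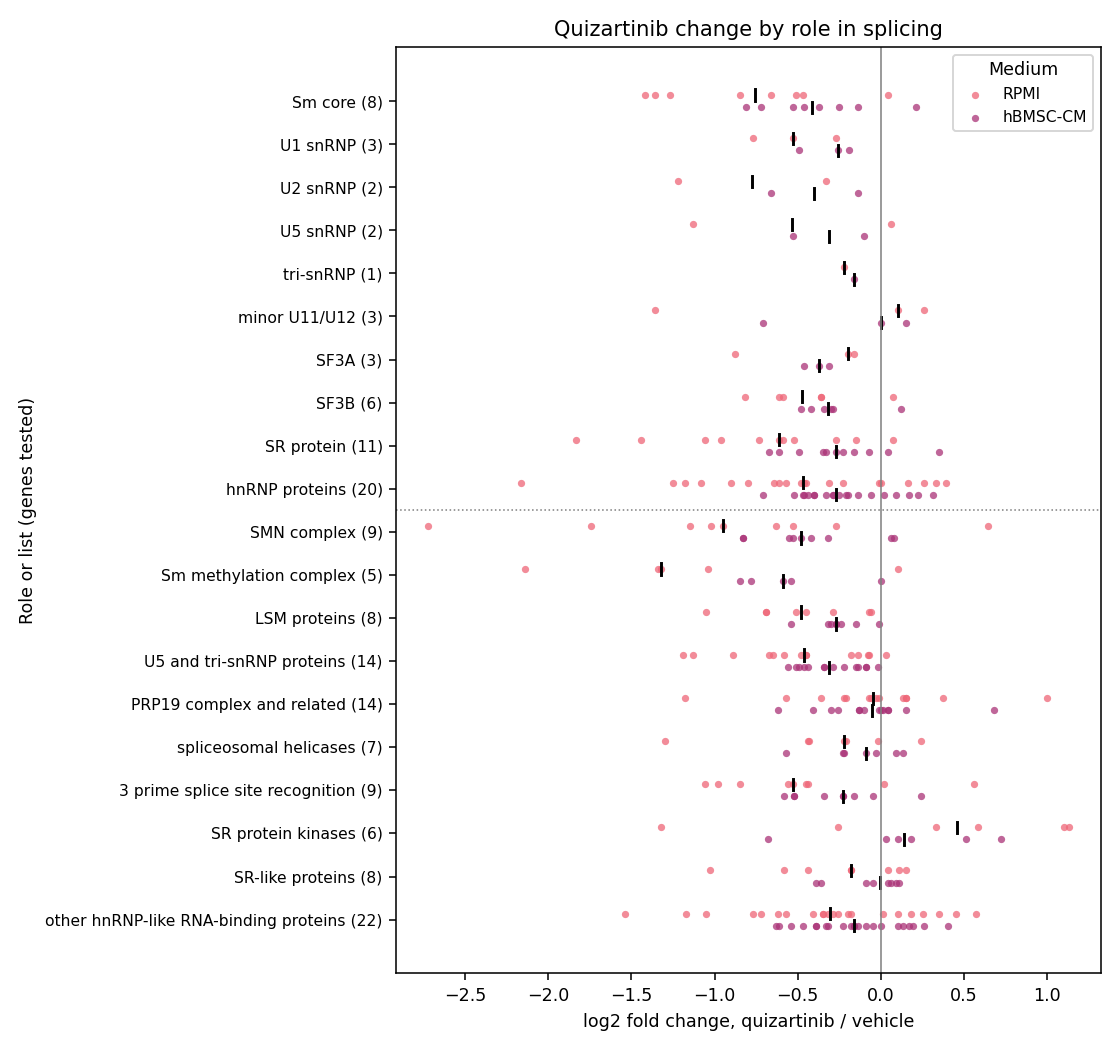
Log2 fold change on quizartinib in RPMI and hBMSC-CM by role, with the 4 families above the dotted line and the 10 further lists below it. Each point is a gene, black lines are medians, and the number of genes tested is in parentheses. The SR protein kinases have a median above 0, and the SMN and Sm methylation complexes have the lowest medians in RPMI.

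Levels of different genes can be compared only per length. In RPMI vehicle, CPM per kilobase of the canonical transcript was highest for HNRNPH1 (644 ± 6.79, SD, n = 3), followed by HNRNPC (419), HNRNPA1 (372), HNRNPK (322) and HNRNPF (304). The Sm ring genes spread from SNRPD2 (266) and SNRPF (222) to SNRPE (30.6) and SNRPD3 (29.4), a scale that depends on which transcript is taken as canonical. In RPMI quizartinib the value of HNRNPH1 was 462, and HNRNPF, the fifth in vehicle, had 128.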

How the data were processed

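RNA-seq was performed on 12 libraries of MOLM-13 cells, 3 in each of 4 groups. Per the study's methods, the authors selected poly-A RNA, trimmed adapters and removed short reads with BBDuk, and aligned and counted paired-end reads per gene on the human Ensembl genome (hg38) with STAR v2.6.0a. Identifiers with one gene name were summed. The authors deposited raw counts, which were used as they stand. Reads that match several genes cannot be reassigned from such a table, which affects paralogs and pseudogenes. Total counts per library ranged from 19966546 to 31546104, and the CPM of 3 counts covers counting error only.

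Genes with a mean count and a mean CPM of at least 1 were kept, as in the study, which left 12998 of 30572 genes with a count. Library scaling used TMM factors, and the test was the quasi-likelihood F-test of edgeR 4.0.16 (R 4.3.3) in one model of 4 group means. P-values are two-sided and were adjusted by the Benjamini-Hochberg method over all genes tested within each of 5 comparisons, with a threshold of 0.05. The SE is the log2 fold change divided by the square root of F. The fitting code was tested on simulated data. The labels give replicates of one cell line without saying that they were separate cultures, and the study's reporting checklist calls all its replicates biological. P-values measure the spread between these libraries, part of which may be technical. Replicates differed beyond sampling noise, and none was counted as a duplicate.

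Members were taken by symbol, and the members, the 10 lists, the roles and the tests were chosen with earlier results of these data known. In each family the 3 largest decreases and increases called in RPMI, the 2 largest called interactions and the smallest change were named, with further members to complete a role, and in each list the extremes among called genes. HNRNPH3, the genes that stand out in single libraries and the genes behind small counts were named after their values were seen. Gene lengths and exons come from GENCODE v44 and promoter windows from RefSeq (GRCh38.p14), whereas the authors used Ensembl gene models of the same build. Alternatives were other scalings, DESeq2 1.42.0, limma 3.58.1 (the tool of the study), other filters, a replicate block, a stricter threshold and libraries left out.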

Additional observations from a re-analysis of the deposited data

Results flagged for a closer look

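The response to quizartinib differed between the media, by edgeR's test of the interaction, for 36 of the 59 splicing factor genes tested. The interaction was above 0 for 59.3% of the 59 and below 0 for 1.69%, against 26.1% and 19.2% of all genes tested. Values are given here for 13 of the 36 genes. The rule for named genes picked these by the size of their change in RPMI or of their interaction. The value is the log2 fold change in hBMSC-CM minus that in RPMI. In the HNRNP family it was 1.45 for HNRNPAB (adjusted p = 3.91e-13), 0.81 for HNRNPF (adjusted p = 9.52e-10), 0.66 for HNRNPR (adjusted p = 1.01e-08) and -0.36 for HNRNPU (adjusted p = 0.000654). In SRSF it was 1.22 for SRSF7, 0.78 for SRSF2, 0.57 for SRSF1 and 0.29 for SRSF5. In SNRP it was 0.83 for SNRPD1, 0.70 for SNRPG and 0.65 for SNRNP25, and in SF3 it was 0.48 for SF3B3 and 0.43 for SF3A3. The sign was positive for 12 of these genes. For 11 of them quizartinib lowered the mRNA in both media and less so in hBMSC-CM. SRSF5 was called higher in hBMSC-CM and not in RPMI, and HNRNPU was called higher in RPMI and not in hBMSC-CM. A pick by a large decrease in RPMI itself favours a positive sign and a smaller change in hBMSC-CM. These tallies therefore describe the picked genes only. Groups of 3 libraries are too small for a test of single outlying samples.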

How the results depend on the processing

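No splicing factor gene called in one direction was on the other side of 0 under any alternative, and no count of genes called lower on quizartinib moved by over 1.5 times. Counts of the rarer direction moved. Genes higher on quizartinib in RPMI (5) numbered 8 with library size only, 9 with upper-quartile factors and 8 under a CPM minimum of 10, and 5 to 6 when single libraries were left out. Those higher in hBMSC-CM (5) numbered 10, 9 and 8 under the same settings, 2 at an adjusted p under 0.01 and 3 to 6 with a library left out. Genes lower in hBMSC-CM than in RPMI under quizartinib (5) numbered 3 with no filter on low counts, 3 at the stricter threshold and 3 to 6 with a library left out. Genes higher in hBMSC-CM with vehicle (8) numbered 4 with upper-quartile factors, 2 at the stricter threshold, 4 without the 3 libraries that stand apart (chosen after seeing the data) and 2 to 10 with a library left out. Interactions below 0 (1) numbered 2 without those 3 libraries and 1 to 3 with a library left out. The cause of these shifts was not tested. With no filter, 70.6% of all called interactions were above 0, against 57.6%.

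Changes in sign were limited to values that were not called. In RPMI, HNRNPUL1 (-0.00) was 0.085 with library size only, 0.098 with upper-quartile factors, 0.063 under a CPM minimum of 10 and -0.038 to 0.040 with a library left out. With no filter SF3B1 was -0.030, SRSF5 -0.037 and SNRPN -0.066, and SNRPN was -0.008 to 0.111 with a library left out. The interaction of HNRNPUL1 was 0.018 with no filter, 0.008 without the 3 libraries and -0.114 to 0.014 with a library left out, and that of HNRNPUL2 was 0.021 with limma-trend, 0.051 with no filter and -0.15 to 0.165 with a library left out.

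Deviations of libraries that share a replicate number correlated at -0.227 to 0.098 between groups, so the numbers were not taken to pair the libraries. With the replicate block, 46 genes were lower and 5 higher on quizartinib in RPMI, 44 and 5 in hBMSC-CM, 3 lower in hBMSC-CM under quizartinib, and 36 interactions were above 0. Over all genes the block left 10224 calls in RPMI and 5679 interactions, against 10307 and 5881. Depth limits SRSF12 alone, which had 1 count.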

Other observations

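Counts of neighbours that share exon bases with a splicing factor gene gave further values. PHYKPL counts came to between 13.9% and 109% of those of HNRNPAB per library, those of NFE2L2 to 61.4% to 142% of HNRNPA3, and those of MXD1 to 50.3% to 402% of SNRNP27. For GATC and SRSF9 the range was narrower, from 35.2% to 47.7%. SNHG14 had 2440% to 3280% of the counts of SNRPN. Counts of RILPL1 stayed at or below 0.243% of SNRNP35, and HNRNPUL2-BSCL2 had no count in any library.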
